A study of Drosophila melanogaster with 42 samples.

Results

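The genes described here make, conjugate and transport dopamine or take part in tanning of the cuticle in *Drosophila melanogaster*. The list holds 10 genes, chosen by name: *Punch* (*Pu*), *pale* (*ple*), *Dopa decarboxylase* (*Ddc*), *ebony* (*e*), *black* (*b*), *tan* (*t*), *yellow* (*y*), *AANAT1*, *Vmat* and *DAT*. Of the 16320 probes in the table, 13 carried the current or older name of a member, and they covered 9 of the 10 genes. *Pu* and *AANAT1* had 2 probes each, *Vmat* had 3 and the other 6 genes had 1 each, while *b* was not analysed here. The *AANAT1* probes stand in the probe table under the symbol *speck*. Probe numbers are given so that probes of the same gene can be told apart.

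Dopamine is made from tyrosine by tyrosine hydroxylase (*ple*), which uses tetrahydrobiopterin made through GTP cyclohydrolase (*Pu*), and then by dopa decarboxylase (*Ddc*). In neurons Vmat loads the amine into vesicles and DAT takes it back up from the synapse. In the epidermis of a young fly, dopamine is oxidised to dark pigment or is first joined to β-alanine by Ebony or acetylated by AANAT1, which gives pale cuticle. Ebony and Tan also act in the visual system, where Ebony in glia joins histamine to β-alanine and Tan in photoreceptors splits the product, carcinine.

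RNA was compared on 42 two-color oligonucleotide arrays, each hybridized with a pair of samples, in 8 comparisons. Heads of mutants were set against wild-type heads for *tra* pseudomales, *dsxD* pseudomales and *dsx* null XX intersexual animals (4 arrays each, all against Canton-S females), *dsx* null XY intersexual animals (4 arrays, against Canton-S males) and *fru P1* mutant males. The *fru P1* males were *fru 4-40/p14* against Canton-S (4 arrays) and *fru w12/Cham5* against *w; Berlin* (4 arrays), as the channel labels give them. Wild-type females were set against males in heads of Canton-S and Berlin (4 arrays each). The dissected central nervous system (CNS; brain and ventral nerve cord) was compared for *fru P1* mutant males against wild type (3 arrays of *fru 4-40/p14* against Canton-S and 3 of *fru w12/Cham5* against *w; Berlin*) and between Canton-S females and males (4 arrays).

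Flies were 0–24 h old by the labels, and the methods place head samples at 8–24 h after eclosion. A head sample held about 100 heads and a CNS sample about 20 dissected tissues. The XX mutants carried an X chromosome marked with *y* and *w* and a *ubi-gfp* transgene with a *w+* marker. The mutant alleles were *tra1/Df(3L)st-j7* in *tra* pseudomales, *dsxD, Sb* over *dsx m+r15* in *dsxD* pseudomales and *dsx d+r3/M+r15* in the *dsx* null animals of either karyotype. The *tra* and *fru P1* genotypes used deficiency chromosomes, and in *fru 4-40/p14* males transcripts from the *fru* P2 promoter are lost as well. The titles of the *fru P1* arrays name another wild-type strain than the channel labels do, on 4 of 8 head arrays (*fru 4-40/p14*) and on 6 of 6 CNS arrays, and the channel labels were used here. Mutation, markers and strain background therefore cannot be told apart in the mutant comparisons. Whether the Canton-S female extracts were shared between the *tra*, *dsxD* and *dsx* null XX arrays is not stated in the sources used here.

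All values are log2 ratios, mutant minus wild type or female minus male, so that 1 unit is a 2-fold difference and a positive value means higher in mutants or in females. The arrays give ratios and no levels, so genes are not compared for abundance. A probe was tested with limma where at least 75% of the arrays of a comparison carried a value, and was called higher or lower at a Benjamini-Hochberg adjusted p under 0.15 over all tested probes. SE is the standard error of that fit. In heads, which hold many tissues, fewer cells of a type and less RNA per cell cannot be told apart.

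Per array, 5881 to 11900 probes carried a value. The direction of the ratios was checked on genes of known sex bias and on the targeted gene: *Yp1*, a yolk protein gene of the fat body, was positive on 8 of 8 wild-type head arrays and the *fru* probe with values on all *fru P1* head arrays was negative on 8 of 8 *fru P1* head arrays. Members were measured more completely than most probes. Apart from *y* and *Vmat* probe 8880, the member probes had values on 75% to 100% of the 32 head arrays and on all 10 CNS arrays, against 55.9% and 54.4% for all probes. *y*, which encodes a secreted protein needed for black pigment, had a value on 0 of 32 head arrays and 1 of 10 CNS arrays and was not tested. *Vmat* probe 8880 had values on 9 head arrays and 0 CNS arrays.

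**Figure D1:**
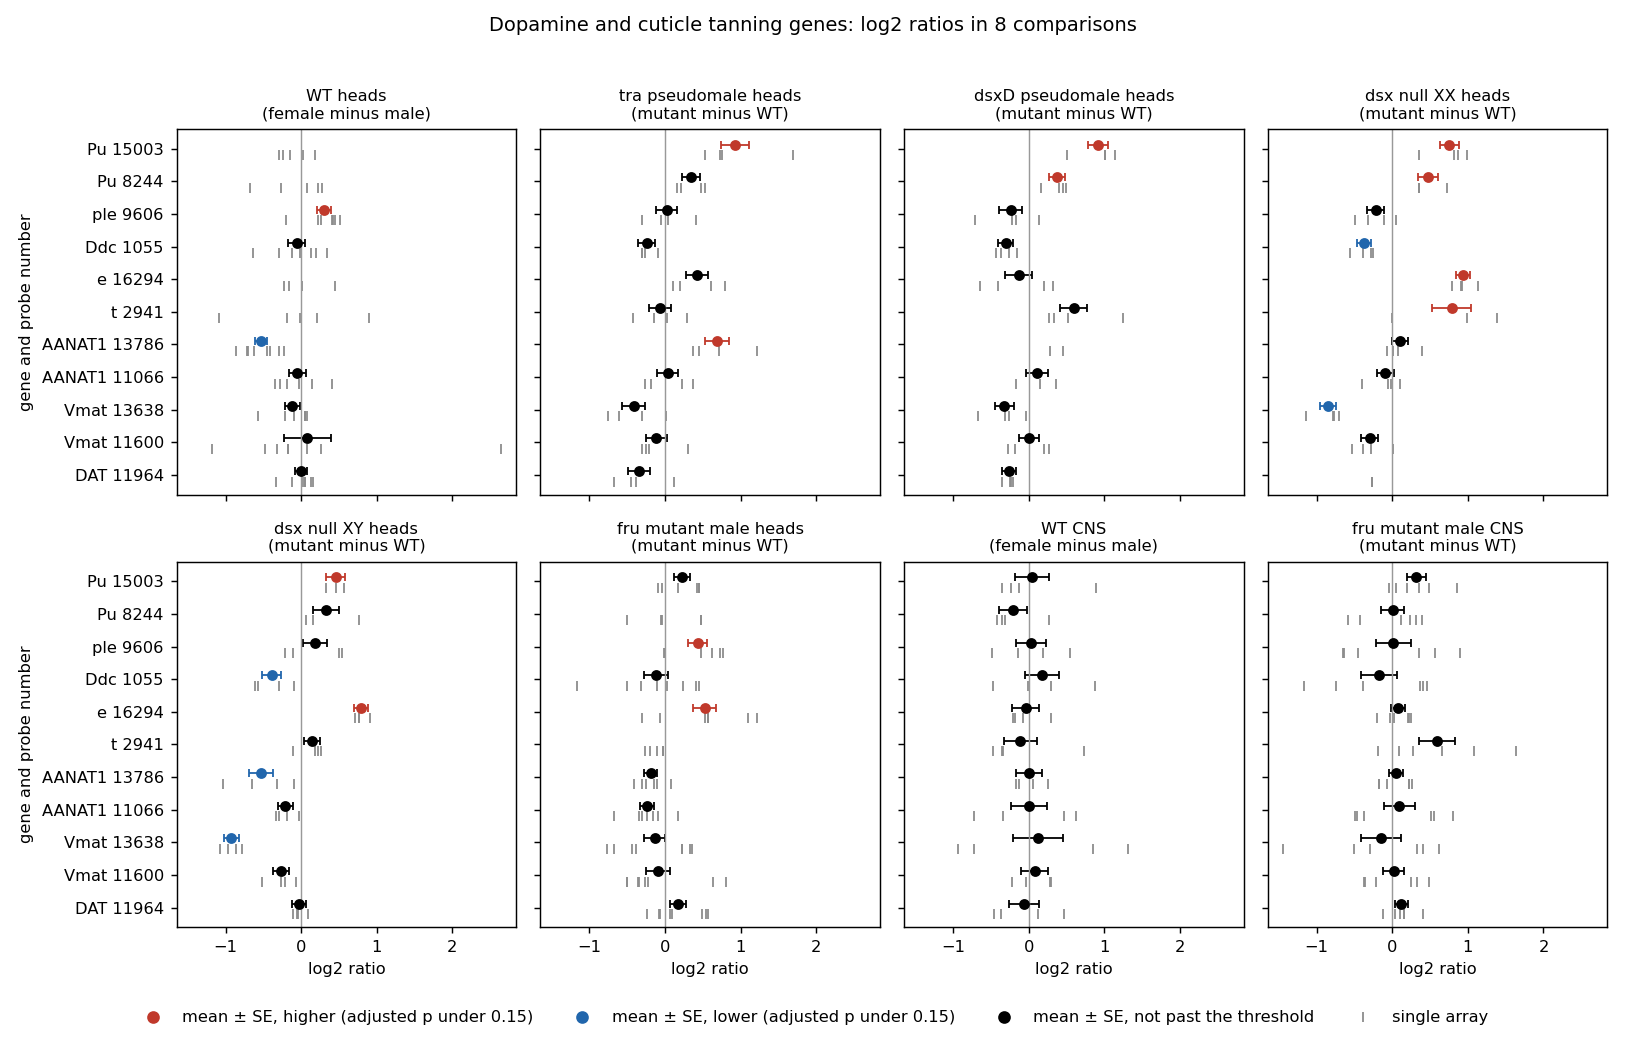
Log2 ratios (horizontal axis) of 11 member probes (vertical axis) in 8 comparisons. Gray ticks are single arrays, dots with bars are means ± SE of tested probes, red dots were higher and blue dots lower at an adjusted p under 0.15. Most colored dots lie in the mutant head panels, and none lie in the CNS panels.

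Members were called in all 6 head comparisons, and most often in the *dsx* null genotypes. In *dsx* null XX heads, 4 of the 10 tested member probes were higher and 2 were lower, where 21.5% of all tested probes were called (11.7% higher and 9.74% lower). Of the 11 tested in *dsx* null XY heads, 2 were higher and 3 lower, where 25.7% of all were called (13.4% higher and 12.4% lower). In *tra* pseudomale heads, 2 of 12 were higher and 1 lower, with 9.55% of all called (5.04% higher and 4.51% lower). In *dsxD* pseudomale heads, 2 of 11 were higher and 0 lower, with 5.97% of all called (3.36% higher and 2.61% lower). In *fru P1* heads, 2 of 9 were higher and 0 lower, with 11.6% of all called (6.77% higher and 4.86% lower). Between wild-type females and males, 1 of 7 was higher and 1 lower in female heads, with 9.08% of all called (5.1% higher and 3.98% lower).

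Summed over the 6 head comparisons, 20 of 60 member tests passed the threshold (33.3%), against 6986 of 50872 for all probes (13.7%). These sums describe the members and were not tested, since several comparisons may share control samples and some genes have several probes. The median size of a member's log2 ratio was 0.42 in *dsx* null XX heads, 0.33 in *dsx* null XY heads, 0.34 in *tra* heads and 0.30 in *dsxD* heads, where the medians over all tested probes were 0.16, 0.18, 0.13 and 0.12. It was 0.19 in *fru P1* heads against 0.10 for all probes, and 0.08 between the sexes of wild-type heads against 0.10 for all. Calls fell on 7 of the 8 genes tested in heads; *DAT* was the member never called.

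*Pu*, which encodes GTP cyclohydrolase, the first enzyme of tetrahydrobiopterin and of the pteridine eye pigments, was the member called most often. Probe 15003 gave 0.73, 0.76, 1.70 and 0.52 in *tra* pseudomale heads against wild-type females, a mean of 0.93 (SE 0.19, adjusted p = 0.0213) or 1.90-fold. In *dsxD* pseudomale heads the arrays gave 1.01, 1.01, 0.51 and 1.15, a mean of 0.92 (SE 0.13, adjusted p = 0.0194). All 8 arrays of these pseudomale comparisons were positive, and the third *tra* array stood highest. In *dsx* null XX heads the same probe gave 0.99, 0.81, 0.36 and 0.86, a mean of 0.76 (SE 0.12, adjusted p = 0.00943). The 3 *dsx* null XY arrays that measured it gave 0.46, 0.33 and 0.57, with a mean of 0.45 (SE 0.12, adjusted p = 0.062). Every array of the 4 mutant comparisons was thus above 0, in both chromosomal sexes.

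The second *Pu* probe, 8244, pointed the same way with smaller values. It was higher in *dsxD* heads (0.16, 0.49, 0.46 and 0.41; mean 0.38, SE 0.10, adjusted p = 0.145) and in *dsx* null XX heads (0.35, 0.72 and 0.35; mean 0.47, SE 0.13, adjusted p = 0.0713). Its call in *dsxD* heads was lost without any of arrays 2, 3 or 4 (highest adjusted p = 0.368). In *tra* heads it averaged 0.34 (SE 0.12, adjusted p = 0.187) and in *dsx* null XY heads 0.33 (SE 0.17, adjusted p = 0.269), with every array above 0 and neither mean past the threshold. In wild-type heads both *Pu* probes had values on only 5 of 8 arrays and were not tested: female minus male ratios ran between −0.68 and 0.27 for probe 8244 and between −0.29 and 0.18 for probe 15003, on both sides of 0. In *fru P1* heads probe 15003 averaged 0.23 (SE 0.10, adjusted p = 0.277).

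**Figure D2:**
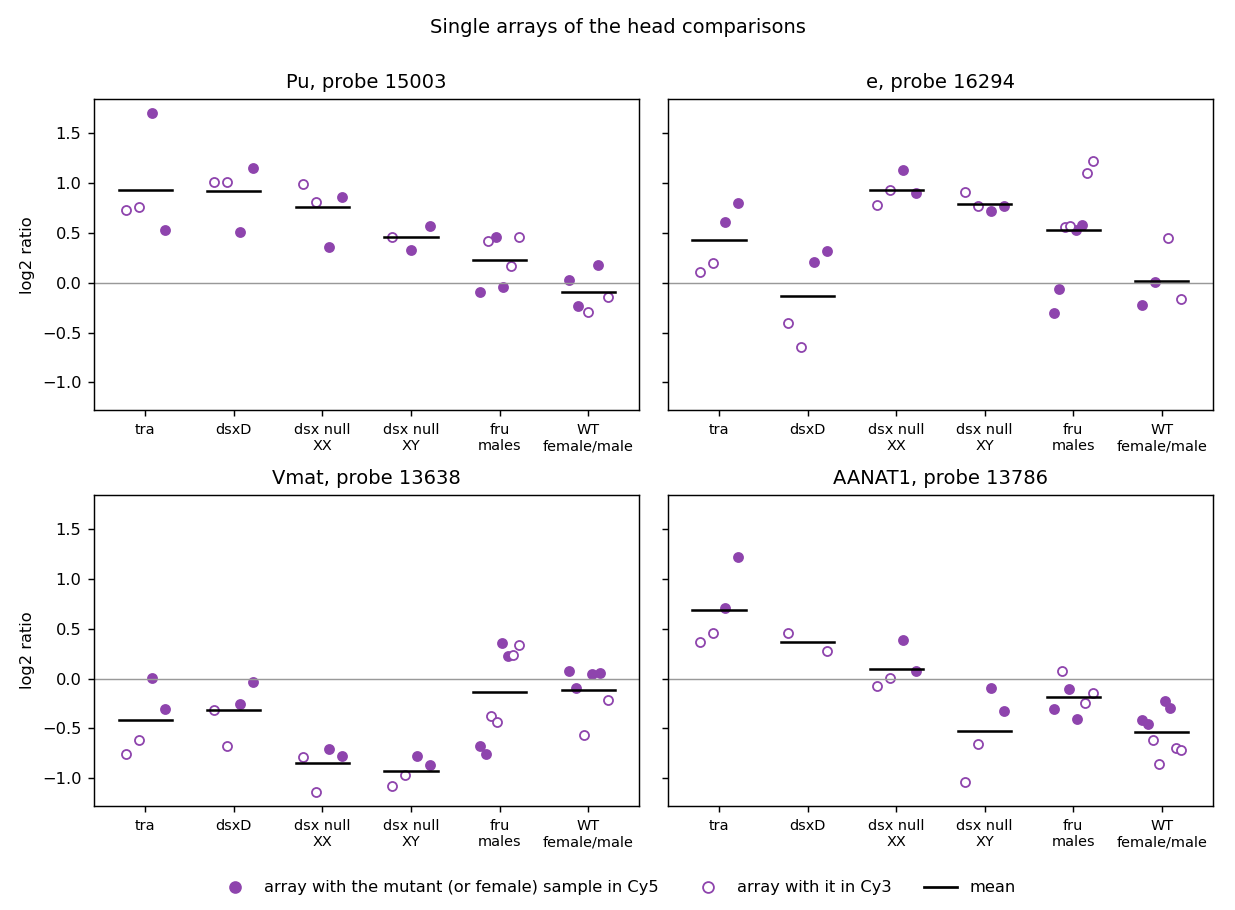
Log2 ratios on single arrays (vertical axis) for *Pu* 15003, *e* 16294, *Vmat* 13638 and *AANAT1* 13786 in the 6 head comparisons (horizontal axis); filled points had the mutant or female sample in Cy5, open points in Cy3, and lines are means. *Pu* lies above 0 on every array of the *tra*, *dsxD* and *dsx* null comparisons, and *e* and *Vmat* lie on opposite sides of 0 in both *dsx* null comparisons.

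*ple*, the rate-limiting enzyme of dopamine synthesis, did not follow *Pu*. Its means were 0.03 (SE 0.14) in *tra* heads, −0.24 (SE 0.15) in *dsxD* heads, −0.22 (SE 0.12) in *dsx* null XX heads and 0.18 (SE 0.16) in *dsx* null XY heads, none past the threshold. Its arrays in *dsx* null XY heads divided by dye, 0.50 and 0.54 with the mutant in Cy3 and −0.21 and −0.10 with it in Cy5. *ple* was higher in *fru P1* heads, at 0.62, 0.48 and 0.77 for *fru w12/Cham5* and 0.73, −0.02 and 0.01 for *fru 4-40/p14* (mean 0.43, SE 0.13, adjusted p = 0.1). Both allele combinations had a positive mean, 0.62 ± 0.15 in *fru w12/Cham5* and 0.24 ± 0.42 in *fru 4-40/p14* (SD, n = 3 each). The *fru 4-40/p14* arrays alone did not pass the threshold (adjusted p = 0.443), and *fru w12/Cham5* alone did (adjusted p = 0.0216).

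In wild-type heads *ple* was the member higher in females. The ratios were 0.41, 0.42 and 0.51 in Canton-S and −0.20, 0.22, 0.44 and 0.26 in Berlin, positive on 6 of 7 arrays, with the negative one from Berlin. The call (adjusted p = 0.112) was lost when any of 5 arrays was left out (replicates 1, 2, 6, 7 and 8; highest adjusted p = 0.251), and in a single fit over all 42 arrays (adjusted p = 0.36). Without Berlin replicate 5 the mean was 0.38 (adjusted p = 0.0363). Canton-S and Berlin means differed by 0.27 (SE 0.17, adjusted p = 0.797).

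*Ddc*, the enzyme that turns L-DOPA into dopamine, was lower in both *dsx* null genotypes. The ratios were −0.26, −0.39, −0.57 and −0.28 in *dsx* null XX heads (mean −0.37, SE 0.10, adjusted p = 0.0551). For *dsx* null XY heads they were −0.10, −0.29, −0.61 and −0.57 (mean −0.39, SE 0.12, adjusted p = 0.0808). All 8 arrays were below 0. The XY call was lost without array 3 or array 4 (highest adjusted p = 0.265), and both calls were lost in a single fit over all 42 arrays (adjusted p = 0.336 for XX and 0.242 for XY). *Ddc* was also below 0 on 8 of 8 arrays of the pseudomale comparisons, with means of −0.24 in *tra* heads (SE 0.11, adjusted p = 0.356) and −0.30 in *dsxD* heads (SE 0.10, adjusted p = 0.222) that did not pass.

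*ebony*, which encodes the β-alanyl conjugating enzyme of dopamine and histamine, had the largest increase among members in both *dsx* null genotypes. In *dsx* null XX heads its ratios were 0.78, 0.92, 1.13 and 0.90, a mean of 0.93 (SE 0.10, adjusted p = 0.00143), or 1.91-fold. Those of *dsx* null XY heads were 0.91, 0.77, 0.71 and 0.76, a mean of 0.79 (SE 0.10, adjusted p = 0.00299), or 1.73-fold. The arrays agreed closely within each genotype, and all 8 were above 0.7. The XX and XY means differed by 0.15 (SE 0.12, adjusted p = 0.999).

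In the pseudomales *ebony* was not called, and the difference from the *dsx* null values was not tested. In *tra* heads *ebony* gave 0.11, 0.20, 0.61 and 0.80, all positive, with a mean of 0.43 (SE 0.15) that missed the threshold (adjusted p = 0.164). It passed with dye orientation as a covariate (adjusted p = 0.0348), among probes with a value on every array (adjusted p = 0.138) and without array 1 (adjusted p = 0.133). In *dsxD* heads the ratios were −0.40 and −0.65 with the mutant in Cy3 and 0.21 and 0.32 with it in Cy5, so that the sign followed the dye and the mean was −0.13 (SE 0.18). The *tra* and *dsxD* means differed by 0.56 (SE 0.24, adjusted p = 0.963). In *fru P1* heads *ebony* was higher (mean 0.52, SE 0.15, adjusted p = 0.086), positive on 4 of 4 arrays of *fru w12/Cham5* and 2 of 4 of *fru 4-40/p14*. That call was lost without any of replicates 3, 7 and 8 (highest adjusted p = 0.166). In wild-type heads it had 4 values, −0.22 from Canton-S and 0.00, 0.45 and −0.16 from Berlin, and was not tested.

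*tan*, whose product reverses the reaction of Ebony, was higher in *dsx* null XX heads (1.39, 0.98 and −0.01; mean 0.79, SE 0.26, adjusted p = 0.115). The 3 values spanned the whole range from no difference to more than 2-fold. In *dsx* null XY heads it averaged 0.14 (SE 0.11, adjusted p = 0.441), and the XX and XY means differed by 0.65 (SE 0.29, adjusted p = 0.873). In *dsxD* heads *tan* was positive on all 4 arrays, at 1.25, 0.52, 0.27 and 0.34, and did not pass (mean 0.59, SE 0.18, adjusted p = 0.173). In *tra* heads it averaged −0.06 (SE 0.14).

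*AANAT1*, the arylalkylamine acetyltransferase that acetylates dopamine, was the member with the clearest difference between wild-type sexes. Probe 13786 was lower in female heads than in male heads on 8 of 8 arrays, with a lowest ratio of −0.86, a median of −0.54 and a highest of −0.23 (mean −0.54, SE 0.08, adjusted p = 0.00549), which is 1.45-fold. Canton-S arrays gave −0.41, −0.45, −0.62 and −0.86, and Berlin arrays gave −0.23, −0.29, −0.70 and −0.72. The strains overlapped, and their means differed by −0.10 (SE 0.17, adjusted p = 0.912). In both strains the smaller differences were on the arrays with the female sample in Cy5, and the call held with dye orientation as a covariate and without each array in turn (highest adjusted p = 0.0184). With 4 arrays alone it held in Berlin and was lost in Canton-S (adjusted p = 0.202).

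The same probe was higher in *tra* pseudomale heads than in wild-type female heads, at 0.37, 0.45, 0.71 and 1.22 (mean 0.69, SE 0.16, adjusted p = 0.0377). It was lower in *dsx* null XY heads than in wild-type male heads, at −1.04, −0.66, −0.10 and −0.32 (mean −0.53, SE 0.16, adjusted p = 0.0779). The *dsx* null XY call was lost without array 1, 2 or 4 (highest adjusted p = 0.181). The *dsx* null XX arrays gave −0.07, 0.00, 0.39 and 0.08 against wild-type females (mean 0.10, SE 0.11, adjusted p = 0.606). The difference between the XX and XY means was 0.63 (SE 0.20), with an adjusted p of 0.556. In alternative fits it was 0.143 with the replicate number as a block and 0.0886 with dye orientation as a covariate. Same-numbered arrays share dye orientation, so the block also takes up the dye. In *dsxD* heads only 2 arrays carried a value, 0.46 and 0.28.

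The other *AANAT1* probe, 11066, did not share this pattern and was called in 0 of 8 comparisons. In wild-type heads it averaged −0.05 (SE 0.11), positive in Canton-S at 0.17 and negative in Berlin at −0.27. In *tra* heads its sign followed the dye, at 0.37 and 0.23 with the mutant in Cy5 and −0.26 and −0.19 with it in Cy3. Both *AANAT1* probes lie on chromosome arm 2R in the gene table, and which transcripts each detects was not analysed here.

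*Vmat*, the vesicular monoamine transporter of dopamine, serotonin and octopamine neurons, was the most strongly lowered member. Probe 13638 gave −0.78, −1.14, −0.70 and −0.78 in *dsx* null XX heads, a mean of −0.85 (SE 0.11, adjusted p = 0.00294). In *dsx* null XY heads it gave −1.08, −0.97, −0.78 and −0.87, a mean of −0.92 (SE 0.10, adjusted p = 0.0019), or 1.90-fold lower. All 8 arrays lay below −0.7, and the genotypes differed by 0.07 (SE 0.14, adjusted p = 0.999). In the pseudomales the probe averaged −0.42 in *tra* heads (SE 0.15, adjusted p = 0.186) and −0.32 in *dsxD* heads (SE 0.13, adjusted p = 0.321), neither past the threshold.

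The other *Vmat* probes were weaker or sparse. Probe 11600 averaged −0.30 in *dsx* null XX heads (SE 0.11, adjusted p = 0.151) and −0.27 in *dsx* null XY heads (SE 0.11, adjusted p = 0.164), just outside the threshold. In the pseudomales it was near 0, at −0.11 in *tra* heads (SE 0.14, adjusted p = 0.802) and 0.01 in *dsxD* heads (SE 0.13, adjusted p = 0.991). In wild-type heads it had a Canton-S array at 2.64, while the other 7 arrays lay between −1.18 and 0.27. Probe 8880 was lower in *tra* heads on the 3 arrays that measured it (−0.43, −1.05 and −0.92; mean −0.80, SE 0.17, adjusted p = 0.0317), and no array of either *dsx* null comparison measured it. In *dsxD* heads it gave 0.02, −0.58 and −0.52 (adjusted p = 0.413).

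*DAT*, which returns released dopamine to the neuron, was tested in 5 head comparisons and passed in 0. In the XX mutants most arrays were below 0: it averaged −0.35 in *tra* heads (SE 0.15, adjusted p = 0.282) and −0.26 in *dsxD* heads (SE 0.09, adjusted p = 0.261). The *dsx* null XX arrays held 2 values, both −0.27, and was not tested. In *dsx* null XY heads it averaged −0.03 (SE 0.10), and between wild-type sexes 0.00 (SE 0.08).

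Other genes of these pathways were taken from fixed lists. Of 12 genes for cofactor and precursor supply, 10 had a probe. In *dsx* null XX heads 4 of 9 tested were higher and 1 lower, where 21.5% of all probes were called. In *dsx* null XY heads 4 of 8 were higher and 2 lower, where 25.7% of all were called. The higher ones in both were *pr*, *Dhpr*, *Catsup* and *su(r)*. *pr*, which acts in pteridine synthesis after *Pu*, averaged 0.71 (SE 0.12) in XX and 0.54 (SE 0.13) in XY, and was the list's only call in *tra* heads (0.57, SE 0.11, adjusted p = 0.0207) and in *dsxD* heads (1.47, SE 0.12, adjusted p = 0.00262). *Dhpr*, which regenerates the pterin cofactor, averaged 0.39 (SE 0.12) in XX and 0.48 (SE 0.14) in XY. *Catsup*, which restrains dopamine synthesis in flies, averaged 0.37 (SE 0.13) in XX and 0.63 (SE 0.11) in XY, and was also higher in *fru P1* heads (0.25, SE 0.07, adjusted p = 0.0861).

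*su(r)* acts in the breakdown of pyrimidines, a source of β-alanine, the partner that Ebony joins to dopamine. It was higher in *dsx* null XX heads (0.87, SE 0.10, adjusted p = 0.00261), *dsx* null XY heads (1.29, SE 0.10, adjusted p = 0.000453) and *fru P1* heads (0.46, SE 0.09, adjusted p = 0.017). *ebony* was higher in the same 3 comparisons. In *tra* and *dsxD* heads *su(r)* averaged −0.14 (SE 0.14) and −0.10 (SE 0.19). The genes lower in both *dsx* null genotypes or in XY alone were outside dopamine synthesis: *Gad1*, for GABA synthesis, averaged −0.29 in XX and −0.41 in XY, and *Tbh*, for octopamine synthesis, −0.37 in XY.

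**Figure D3:**
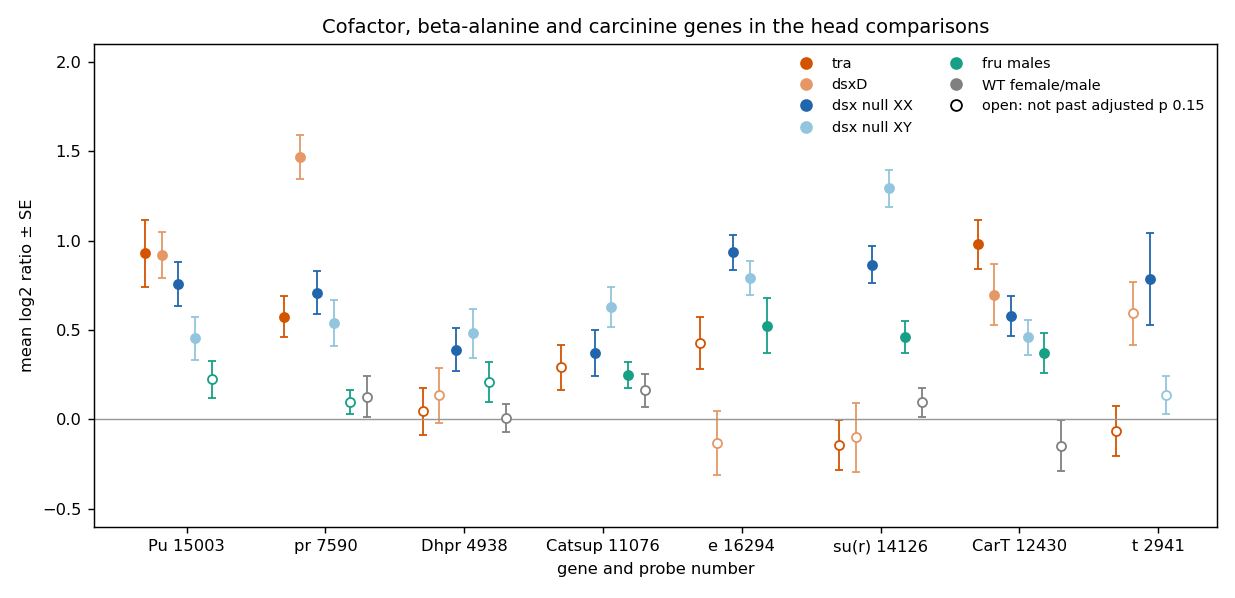
Mean log2 ratio ± SE (vertical axis) of *Pu*, *e*, *t* and 5 genes of the cofactor, β-alanine and carcinine steps (horizontal axis) in 6 head comparisons (colors); filled points passed an adjusted p of 0.15. *e* and *su(r)* are filled in both *dsx* null comparisons and in *fru* males, while *Pu*, *pr* and *CarT* are filled in all 4 comparisons of *tra*, *dsxD* and *dsx* null heads.

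Among 11 genes of amine receptors and signaling, 9 had a probe. *CarT*, the carcinine transporter of photoreceptors, was higher in every mutant head comparison: *tra* (0.98, SE 0.14), *dsxD* (0.70, SE 0.17), *dsx* null XX (0.58, SE 0.11), *dsx* null XY (0.46, SE 0.10) and *fru P1* (0.37, SE 0.11). It was the list's only higher gene in each. In *dsx* null XX heads 3 of 9 tested probes were lower, where 9.74% of all were. They were those of the dopamine receptor gene *Dop1R1* (−0.34), the serotonin transporter gene *SerT* (−0.45) and *Octbeta1R* (−0.37). In *dsx* null XY heads 3 of 9 were lower, where 12.4% of all were: *Dop1R1* (−0.50), *Octbeta1R* (−0.56) and *Oct-TyrR* (−0.45). *DopEcR*, a receptor for dopamine and ecdysteroids, was lower in wild-type female heads than in male heads (−0.31, SE 0.09, adjusted p = 0.0867).

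Of 29 genes of the yellow family, laccase, phenoloxidase and other tanning enzymes, 25 had a probe. The laccase gene *stw*, whose product oxidises catechols in the cuticle, was higher with both probes in *fru P1* heads (0.51 and 0.47) and in *dsx* null XY heads (0.43 and 0.57). It was higher with 1 of 2 probes in *dsxD* heads (0.44) and in *dsx* null XX heads (0.34). *AANATL2*, an acetyltransferase related to *AANAT1*, was lower in *tra* heads (−1.15, SE 0.17) and *dsxD* heads (−0.84, SE 0.12). *AANATL7*, of the same family, was lower in *dsx* null XY heads (−0.69), and the phenoloxidase gene *PPO2* was lower in *tra* heads (−0.77). *yellow-d* was lower in *tra* heads (−0.72) and *dsx* null XY heads (−0.30) and higher in *fru P1* heads (0.97). *yellow-d2* was higher in *tra* (0.51), *dsx* null XY (0.34) and *fru P1* heads (0.45), and *yellow-f2* in *dsx* null XX (0.33) and XY heads (0.46). Between wild-type sexes 0 of 11 tested probes of this list were called, where 9.08% of all were.

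The 138 genes for structural cuticle proteins and chitin enzymes were collected by symbol from the probes themselves, so each had a probe. Calls went in both directions. In *tra* heads 11 were higher and 11 lower of 61 tested (9.55% of all probes called), and in *dsxD* heads 6 and 7 of 72 (5.97% of all). In *dsx* null XX heads they were 11 and 8 of 64 (21.5% of all), and in *dsx* null XY heads 11 and 9 of 58 (25.7% of all). In *fru P1* heads 15 of 50 were higher and 3 lower (11.6% of all). Between wild-type sexes 10 of 63 were higher in females and 2 lower (9.08% of all).

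Markers of several head tissues moved in the same comparisons, where 5.97% (*dsxD*) to 25.7% (*dsx* null XY) of all tested probes were called. Of 8 photoreceptor marker genes only 4 were matched to a probe by name, *trp*, *inaC*, *Arr1* and *Arr2*. These markers were higher on 4 of 4 in *dsx* null XX heads (median 2.05, range 1.64 to 2.96) and 4 of 4 in *dsx* null XY heads (median 1.79, range 0.99 to 2.42). They were higher on 2 of 4 in *tra* heads (median 1.04), in *dsxD* heads (median 0.92) and in *fru P1* heads (median 0.45), and on 0 of 4 between wild-type sexes (median −0.25). Neuron markers, 8 probes in each head comparison, were lower on 5 in *dsx* null XY heads (median −0.31), 2 in *dsx* null XX heads (median −0.18), 1 in *dsxD* heads (median −0.19), 0 in *tra* heads (median −0.12), 2 in *fru P1* heads (median −0.27) and 3 between wild-type sexes (median −0.20), and higher on 0. Glial markers were lower on 1 or 2 of 5 or 6 in each head comparison, and 1, *Gs2*, was higher in *dsx* null XX heads (0.36). Head fat body markers had medians of −2.69 in *tra* heads, −0.38 in *dsxD* heads, 0.68 in *dsx* null XX heads, 4.41 in *dsx* null XY heads and −0.24 in *fru P1* heads, and above 2 between wild-type sexes. Of this list, *Yp1*, *Yp2*, *Yp3*, *fit* and *sxe2* were called between wild-type sexes. Sex regulation and amount of tissue therefore cannot be told apart in these medians. In *dsx* null XX heads 3 of 7 were higher and 3 lower. In *dsx* null XY heads *Yp2* gave 5.70, *Lsp2* 1.63, *apolpp* 1.17 and *sxe2* −0.60. Muscle markers were higher on 5 of 8 probes in *fru P1* heads (median 0.30, with 2 probes of *Tm2* among them) and on 5 of 8 between wild-type sexes (median 0.43), and on 0 or 1 of 8 in the other head comparisons. They were lower on 1 of 8 in *tra* heads, 2 in *dsxD* heads, 1 in *dsx* null XX heads and 1 in *dsx* null XY heads. Haemocyte markers were lower on 3 of 4 in *tra* heads (median −1.97), 2 of 3 in *dsxD* heads (median −1.39) and 1 of 2 in *fru P1* heads, and higher on 1 of 5 in *dsx* null XX heads, 1 of 2 in *dsx* null XY heads and 1 of 5 between wild-type sexes. The part of these tissues in the values of the members was not tested.

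The *fru P1* head comparison joined allele combinations that differed for several members. Between *fru 4-40/p14* and *fru w12/Cham5*, 4 of 7 tested member probes differed in their mutant minus wild-type ratio, where 23.9% of all tested probes did. By the channel labels each combination had its own wild type, so allele and strain cannot be told apart, and the strain itself is in doubt because the array titles differ.

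*Vmat* probe 13638 gave −0.67, −0.76, −0.38 and −0.43 in *fru 4-40/p14* heads and 0.36, 0.23, 0.23 and 0.33 in *fru w12/Cham5* heads, a difference of −0.85 (SE 0.13, adjusted p = 0.00164). *Ddc* went the other way, at 0.45, 0.41, 0.02 and 0.24 in *fru 4-40/p14* heads and −0.31, −0.11, −0.50 and −1.16 in *fru w12/Cham5* heads, a difference of 0.80 (SE 0.21, adjusted p = 0.029). For both genes the combinations did not overlap, so that the joint means of −0.14 for *Vmat* 13638 and −0.12 for *Ddc*, neither past the threshold, averaged values of opposite sign. *DAT* averaged −0.08 ± 0.13 in *fru 4-40/p14* and 0.42 ± 0.22 in *fru w12/Cham5* (SD, n = 4 each), a difference of −0.50 (SE 0.14, adjusted p = 0.0384). *ebony* averaged 0.19 ± 0.44 in *fru 4-40/p14* and 0.86 ± 0.35 in *fru w12/Cham5* (SD, n = 4 each), a difference of −0.67 (SE 0.23, adjusted p = 0.0882). The *ebony* difference was lost without any of replicates 1, 2, 7 and 8 (highest adjusted p = 0.201), and the other 3 held without each array in turn.

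**Figure D4:**
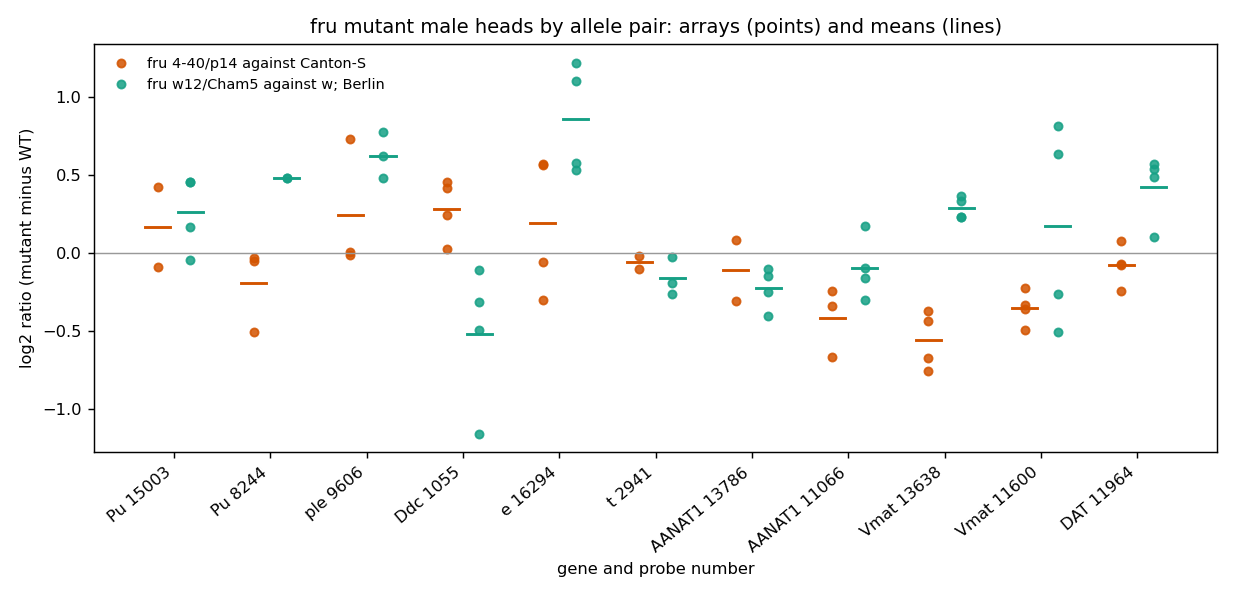
Log2 ratios of *fru P1* mutant minus wild-type male heads (vertical axis) for 11 member probes (horizontal axis); orange points are *fru 4-40/p14* arrays, green points are *fru w12/Cham5* arrays, and lines are means. The arrays of *Vmat* 13638 and *Ddc* lie on opposite sides of 0 in the allele combinations.

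The pseudomale comparisons and the *dsx* null comparisons were also set against each other. Between *tra* and *dsxD* heads 0 of 11 tested member probes differed by limma's test (2 at an unadjusted p under 0.05), where 0.417% of all probes did. Between *dsx* null XX and XY heads 0 of 10 differed (2 at an unadjusted p under 0.05), where 0.751% of all did. Between Canton-S and Berlin, 0 of 7 differed in their female minus male ratio (2 at an unadjusted p under 0.05), where 0% of all did.

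In the CNS no member was called. In *fru P1* mutant males set against wild type, 0 of 11 tested probes passed (2 at an unadjusted p under 0.05; 0 by the methods' t-test after adjustment), where 0.269% of all probes were called (0.187% higher and 0.082% lower). Between Canton-S females and males, 0 of 11 passed (0 at an unadjusted p under 0.05; 0 by the methods' t-test after adjustment), where 0.0602% of all were called (0.0241% higher and 0.0361% lower). The median size of a member's ratio was 0.09 in *fru P1* CNS against 0.07 for all probes, and 0.06 between the sexes against 0.10 for all. The SE of members was larger in the CNS than in heads between the sexes, with a median of 0.20 in CNS (4 arrays) and 0.10 in heads (8 arrays). Over all tested probes the medians were 0.19 and 0.09.

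On the CNS arrays the sign of several members followed the dye. Arrays of the same dye orientation correlated positively over all probes (median r of 0.64 in *fru P1* and 0.47 between the sexes), and arrays of opposite orientation negatively (median r of −0.52 and −0.41). In heads the median r between opposite orientations was positive in each comparison, from 0.21 to 0.57. Of 11 member probes, 5 had opposite signs in the dye orientations on every *fru P1* CNS array and 6 on every array between the sexes.

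*Vmat* probe 13638 had the widest split. It gave −1.45, −0.51 and −0.29 with the *fru P1* sample in Cy5 and 0.32, 0.41 and 0.62 with it in Cy3. Between Canton-S sexes it gave −0.73 and −0.93 on the arrays that had the female sample in Cy5, against 0.85 and 1.32 on those that had it in Cy3. *ple* and *Ddc* changed sign with the dye in the same direction in both CNS comparisons, and *AANAT1* 11066 and *Vmat* 11600 in the opposite one. In the *fru P1* CNS all *fru w12/Cham5* arrays had the mutant in Cy5 and all *fru 4-40/p14* arrays had it in Cy3, so dye and allele combination cannot be told apart there. Between Canton-S sexes the strain was the same on all arrays.

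**Figure D5:**
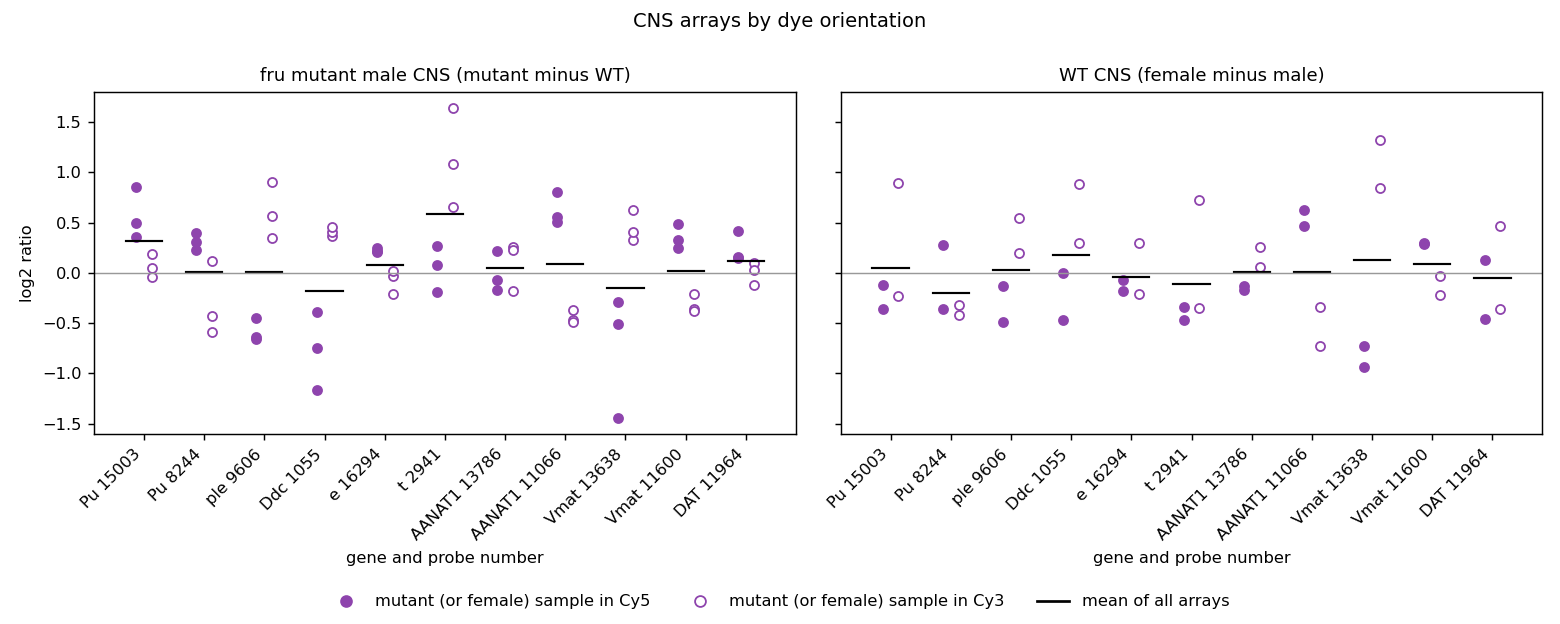
Log2 ratios on CNS arrays (vertical axis) for 11 member probes (horizontal axis), *fru P1* mutant minus wild-type males on the left and wild-type female minus male on the right; filled points had the mutant or female sample in Cy5, open points in Cy3, and lines are means. *ple*, *Ddc*, *AANAT1* 11066 and both *Vmat* probes divide by dye in both panels.

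Other members were flat or variable in the CNS. *Pu* probe 15003 in *fru P1* CNS gave 0.85, 0.36 and 0.49 for *fru w12/Cham5* and 0.19, 0.04 and −0.04 for *fru 4-40/p14*, a mean of 0.32 (SE 0.13, adjusted p = 1, and 0.103 with dye orientation as a covariate). *tan* gave 0.27, −0.20 and 0.08 for *fru w12/Cham5* and 1.09, 0.65 and 1.64 for *fru 4-40/p14*, a mean of 0.59 (SE 0.23, adjusted p = 1, and 0.0868 with the covariate). With the covariate both were thus called higher, and the covariate here also separates the allele combinations. *ebony* averaged 0.08 (SE 0.09) in *fru P1* CNS and −0.04 (SE 0.18) between the sexes. *AANAT1* probe 13786, lower in females on every head array, was negative with females in Cy5 (−0.13 and −0.17) and positive with them in Cy3 (0.25 and 0.06) in the CNS between the sexes, a mean of 0.00 (SE 0.17).

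Heads and CNS were then tested against each other. In *fru P1* mutants 3 of 9 tested member probes differed between the tissues, where 10.4% of all tested probes did. The fit gave each allele combination in each tissue its own mean, so its SE leaves out the split between combinations. In the CNS that split is also one of dye. For *fru w12/Cham5* and *fru 4-40/p14* CNS, *ple* averaged −0.58 and 0.60, *ebony* 0.22 and −0.07 and *AANAT1* 11066 0.62 and −0.44. Their CNS means thus average values of opposite sign. *ple* differed by 0.42, higher in heads (SE 0.14, adjusted p = 0.117), *ebony* by 0.45, higher in heads (SE 0.15, adjusted p = 0.112), and *AANAT1* probe 11066 by −0.35, lower in heads (SE 0.10, adjusted p = 0.0778). Leaving out single arrays gave 0 to 2 of these differences, and *ebony* was lost without any of 10 of the 14 arrays (*fru P1* head replicates 3, 4, 7 and 8 and each CNS array; highest adjusted p = 0.221). *ple* was lost without CNS replicate 1, 3, 4 or 6 (highest adjusted p = 0.246) and *AANAT1* 11066 without CNS replicate 1 or 5 (highest adjusted p = 0.174).

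Between Canton-S sexes 0 of 8 tested members differed between heads and CNS (1 at an unadjusted p under 0.05), where 0.13% of all did. For *AANAT1* probe 13786 the head minus CNS difference was −0.59 (SE 0.20, adjusted p = 0.999), from −0.59 in heads and 0.00 in CNS. CNS RNA was amplified and head RNA was labeled directly, so tissue and amplification cannot be told apart.

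Likeness to *Pu* probe 15003, the member called in most comparisons, was ranked over the means of the 7 comparisons in which it was tested, a choice made after seeing the data. Of 4026 probes ranked, those of *ReepA* (r = 0.99), *CG15445* (r = 0.99), *Cpn* (r = 0.97), *Dlip2* (r = 0.97) and *Rpt5* (r = 0.96) were the most like it. Several of the 7 comparisons share a wild type, so these correlations describe the pattern only. Among members, *e* had an r of 0.16 and *Ddc* of −0.71 with it.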

How the data were processed

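The authors deposited a log2 ratio per probe and array. Per the methods, spots of GenePix scans were inspected visually and dropped where poor or where no more than 75% of their pixels exceeded background by 1 SD, and ratios were lowess normalized in Bioconductor (versions not given in the sources used here). Nothing was normalized again. Deposited ratios run channel 2 over channel 1 irrespective of dye, so those of *tra*, *dsxD* and *dsx* null arrays were turned to mutant minus wild type. Probe names came from the platform table, updated by gene number (12273 probes), accession (116) or symbol (524).

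Each comparison was fitted alone with limma 3.58.1 (R 4.3.3; lmFit, eBayes; two-sided), after the script was tested on simulated data. The 6 differences between comparisons were fitted on the arrays of both sides, for *fru P1* heads against CNS with a separate mean per allele combination and tissue. The methods give at least 4 independent biological samples per experiment, and 6 for *fru P1* males against wild-type males with no tissue named. The *fru P1* head comparison holds 8 arrays, so the independence of all of them is not certain. The number of arrays limits precision. Members and lists were chosen with earlier results of these data known. All member probes are given, and listed genes other than cuticle structure genes, given as counts only, are named where they passed, at most 4 per list and comparison by smallest p, and a gene so named is also given where it passed in other comparisons. Same-numbered arrays correlated at 0.18 to 0.42 between *tra* and *dsxD* and at 0.27 to 0.43 between *dsx* null XX and XY (deviations from the mean). They also share dye orientation, and other arrays of the same dye gave 0.39 to 0.48 and 0.17 to 0.40, so pairing and dye cannot be told apart. Same-numbered Canton-S head and CNS arrays gave −0.19 to 0.21. The main fits used no pairs, and a replicate block was run on these differences as an alternative only. Sequences were not used here.

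Alternatives covered the filter on missing values, array centring and scaling, dye orientation, a fit over all 42 arrays and robust variances. They also covered a two-sided t-test, single strains or alleles, the replicate block and leaving out each array. The t-test was adjusted by Benjamini-Hochberg. The paper used the positive FDR instead, with one-tailed t-tests in the *tra* and *dsxD* comparisons, so its own test was not repeated.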

Additional observations from a re-analysis of the deposited data

Results flagged for a closer look

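Single arrays stood apart from the rest of their group, by the gap to the nearest array relative to the range, in 5 of 81 groups of member values, where chance flags about 1 in 20. They were *ple* probe 9606 on Berlin replicate 5 of the wild-type heads (−0.20, with the other 6 between 0.22 and 0.51), *Vmat* probe 11600 on Canton-S replicate 3 of the wild-type heads (2.64), *Vmat* probe 11600 on *tra* replicate 4 (0.31, with the others between −0.30 and −0.22), and, between Canton-S sexes in the CNS, *Pu* probe 8244 on replicate 2 (0.28, with the others between −0.42 and −0.32) and *tan* probe 2941 on replicate 4 (0.73, with the others between −0.47 and −0.34).

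Effects differed between groups in the limma fit for 7 member results. Heads minus CNS of *fru P1* males differed for *ple* (0.42), *ebony* (0.45) and *AANAT1* probe 11066 (−0.35). The *fru 4-40/p14* minus *fru w12/Cham5* difference in heads was 0.80 for *Ddc*, −0.67 for *ebony*, −0.85 for *Vmat* probe 13638 and −0.50 for *DAT*. For *Pu* probe 8244 the allele combinations lay on opposite sides of 0 in heads, with a difference of −0.68 over 5 arrays that was not tested.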

How the results depend on the processing

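Of the 20 head calls, all 20 held with a looser filter, with arrays centred or scaled, with robust variances and with dye orientation as a covariate. In a single fit over all 42 arrays 16 held, with only probes measured on every array 14, and with the two-sided t-test after adjustment 8. Dye orientation as a covariate raised the head calls to 33 in all, with 7 in *tra*, 6 in *dsxD*, 8 in *dsx* null XX, 8 in *dsx* null XY and still 2 each in *fru P1* and wild-type heads. It gave 2 in *fru P1* CNS (*Pu* 15003 and *tan*), and 1 that differed between *tra* and *dsxD* (*ebony*) and 1 between *dsx* null XX and XY (*AANAT1* 13786). The covariate was fitted for all probes, and the share of all probes called with it is not given here. The rise in calls therefore does not set members apart from other probes. The t-test gave 1 in wild-type heads, 0 in *tra*, 0 in *dsxD*, 4 in *dsx* null XX, 3 in *dsx* null XY and 0 in *fru P1* heads. The single fit gave 1 in wild-type heads and 1 in *dsxD*, and the stricter filter 1 in wild-type heads and 1 in *fru P1* heads. Canton-S alone gave 0 and Berlin alone 1. In *fru P1* heads *fru 4-40/p14* alone gave 4 and *fru w12/Cham5* alone 5, and in *fru P1* CNS 6 and 9. Each of these CNS counts comes from arrays of a single dye orientation, so dye and mutation cannot be told apart in it. The share of all probes called in these fits is not given here, so the counts do not set members apart from other probes.

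Leaving out single arrays gave 1 to 2 calls in wild-type heads, 3 to 3 in *tra*, 1 to 2 in *dsxD*, 4 to 5 in *dsx* null XX, 2 to 4 in *dsx* null XY, 0 to 2 in *fru P1* heads, 0 to 0 in both CNS comparisons, 0 to 2 differing between *fru P1* heads and CNS, 3 to 5 between the *fru* allele combinations in heads, and 0 to 0 for the other differences. The replicate block gave 1 member that differed between *dsx* null XX and XY (*AANAT1* probe 13786), and changed no other count. Calls that rest on 3 of 4 arrays, or on 6 of 8 for *ple* in *fru P1* heads, could not be tested without one of those arrays. The constant 3 in *tra* heads therefore hides a change of probes. *Pu* 15003 and *AANAT1* 13786 passed in all 4 fits, but *Vmat* 8880 could be tested in only 1. In the others a probe uncalled in the main fit passed instead. These were *ebony* without replicate 1 (adjusted p = 0.133), *Vmat* 13638 without replicate 3 (0.0995) and *DAT* without replicate 4 (0.0851).

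Values that turned sign and passed were all from single *fru* allele combinations. In heads, *Ddc* was 0.28 in *fru 4-40/p14* (adjusted p = 0.149) and *Vmat* 13638 was 0.29 in *fru w12/Cham5* (adjusted p = 0.0997). In CNS, *ple* was −0.58 in *fru w12/Cham5*, and in *fru 4-40/p14* *Ddc* was 0.41, *AANAT1* 11066 −0.44, *Vmat* 11600 −0.32 and *Vmat* 13638 0.45. The cause of these changes was not tested, and in the CNS each allele combination had a single dye orientation. Missing values limit *Pu*, *ebony* and *tan* in wild-type heads, where fewer than 6 of 8 arrays measured them.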
